A study of Caenorhabditis elegans with 43 samples.

Results

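Argonaute proteins carry small RNAs and use them as guides to find matching transcripts. The 9 Argonaute genes described here, of 20182 genes in the count table, were chosen by name for their part in small RNA pathways of the C. elegans germline or of inherited and foreign RNA silencing. They are prg-1, csr-1, wago-1, wago-4, hrde-1, alg-3, alg-4, ergo-1 and rde-1. The rule itself uses no measured value, but the genes were picked with earlier results of these data known. All 9 passed the filter on low counts. RNA of whole worms was sequenced after removal of ribosomal RNA, in 43 libraries of 4 strains. Larvae arrested at the L1 stage were fed and grown at 25 °C, and a library was made every 2 h from 18 to 36 h, with a further one at 38 h in all strains but let-7(n2853).

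The strains were let-7(n2853), with 10 libraries, lin-41(xe11), with 11, lin-41(xe11);let-7(n2853), called the double mutant here, with 11, and N2, with 11. let-7 is a microRNA that times the passage from larva to adult, and n2853 is a temperature-sensitive point mutation in it. lin-41, a main let-7 target, encodes an RNA-binding protein, and xe11 changes the sites in its 3′ UTR that pair with let-7. N2 is the laboratory wild type and carries neither allele. There was 1 library per strain and hour, and whether successive hours of a strain were separate cultures is not in the labels, so a p covers only the spread among these libraries. Comparisons between strains were made hour by hour, over an early window of 18 to 26 h and a late window of 28 to 36 h, each with 5 libraries per strain.

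In the C. elegans germline a first layer of Argonautes recognises a transcript, and RNA-dependent RNA polymerases then make many secondary small RNAs on it, which a second, worm-specific layer of Argonautes carries. PRG-1, the PIWI protein, belongs to the first layer and binds piRNAs. ALG-3 and ALG-4, which act where sperm form, also belong to the first layer, as does ERGO-1 in oocytes and embryos. So does RDE-1, which takes up small RNAs cut from foreign double-stranded RNA and also acts in somatic tissues. WAGO-1 and WAGO-4 in the cytoplasm and HRDE-1 in the nucleus carry the secondary small RNAs that silence, while CSR-1 carries small RNAs made from most genes that the germline expresses.

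Levels are given as CPM, counts per 1000000 after scaling to the TMM-adjusted size of the library. The libraries held 22.9 to 32.9 M counts in let-7(n2853), 11.2 to 16.5 M counts in lin-41(xe11), 12.7 to 25.0 M counts in the double mutant and 12.6 to 16.1 M counts in N2 (M is 1000000). The let-7(n2853) libraries were deeper than those of N2, and in comparisons with let-7(n2853) depth and strain cannot be told apart. As a check of the labels, lin-41 RNA was higher than in N2 in the late window by 1.78 ± 0.13 (log2 ± SE) in let-7(n2853), by 1.03 ± 0.13 in lin-41(xe11) and by 1.05 ± 0.13 in the double mutant. All 15 genes of a germline marker list had counts in every library of both windows. In whole worms, fewer cells of a type and less RNA per cell cannot be told apart.

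In N2, 7 of the 9 genes rose over the time course, and they did so in different ways. Of all 13295 genes tested, 50.7% changed with time in N2, and 29.2% were called and higher at 36 h than at 18 h in the fitted curve. For 4 genes, prg-1, csr-1, wago-1 and hrde-1, the RNA was already present at 18 h and rose steadily, wago-4 started low and rose mainly after 30 h, and alg-3 and alg-4 were near 0 until 26 h. ergo-1 and rde-1 stayed between 45.3 and 74.6 CPM at every hour. All 15 germline, 15 sperm and 14 oocyte marker genes tested rose in N2 (median fitted changes of 2.33, 5.95 and 4.62). Like these markers, 7 of the 9 rose, and ergo-1 and rde-1 did not. The tissues in which the 9 are expressed were not tested. Each test here is edgeR's quasi-likelihood test of a smooth curve over the hours of 1 strain, adjusted over all genes tested. It tests a change with time of any shape, and the fitted change from 18 to 36 h gives only the direction.

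prg-1 (WBGene00004178, chromosome I from 7585329 to 7588367, minus strand, in the WBcel235 annotation) stood in N2 at 138, 141.5, 161, 197 and 218 CPM from 18 to 26 h. The values were 269, 306, 346, 359 and 407 CPM from 28 to 36 h, and 359.8 CPM at 38 h. The fitted rise from 18 to 36 h was 1.54 on the log2 scale (adjusted p = 6.58e-07), the smallest among the 7 genes that rose. At 38 h prg-1 was below its 36 h value in lin-41(xe11) (330.3 against 408 CPM at 36 h), in the double mutant (321 against 379.8) and in N2.

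csr-1 (WBGene00017641, chromosome IV from 7957267 to 7962157, plus strand) stood in N2 at 58.5, 89.6, 113, 128 and 151 CPM in the early window. Later values were 177, 211, 259, 349.9 and 415 CPM in the late window and 429.9 CPM at 38 h. Every library was thus above the one before it, and the fitted rise was 2.64 (adjusted p = 5.97e-07). wago-1 (WBGene00011061, chromosome I from 7235384 to 7238792, plus strand) rose by 2.52 (adjusted p = 4.18e-08), with 75.0 CPM at 18 h, 157 CPM at 26 h, 432 CPM at 36 h and 503 CPM at 38 h. hrde-1 (WBGene00007624, chromosome III from 4172337 to 4176159, minus strand) rose by 2.11 (adjusted p = 6.15e-07), with 58.1, 91.9, 258 and 301 CPM at the same hours. csr-1, wago-1 and hrde-1 were still higher at 38 h than at 36 h in N2, unlike prg-1.

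wago-4 (WBGene00010263, chromosome II from 12919551 to 12923377, plus strand) was low at first. In N2 it stood at 8.90, 8.76, 9.84, 13.1 and 19.3 CPM from 18 to 26 h, and at 18.5 and 21.1 CPM at 28 and 30 h. It then reached 38.8, 73.4 and 102 CPM at 32, 34 and 36 h, and 115 CPM at 38 h. Most of its fitted rise of 3.47 (adjusted p = 2.27e-06) thus came after 30 h.

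alg-3 (WBGene00011910, chromosome IV from 11704246 to 11708264, plus strand) and alg-4 (WBGene00006449, chromosome III from 9887209 to 9891424, minus strand) are close paralogs, and how reads that fit both were counted has no statement in the sources at hand. In N2, alg-3 stood at 0.249, 0.669, 0.0656, 0.0689 and 0.436 CPM from 18 to 26 h and at 1.02, 6.67, 25.8, 72.5 and 78.7 CPM from 28 to 36 h. alg-4 stood at 0.0623, 0.134, 0, 0 and 0.187 CPM in the early window and at 1.79, 14.3, 47.9, 124 and 135 CPM in the late window. Both genes levelled off after 34 h and stood at 75.9 and 110.2 CPM at 38 h. Summed over the 5 early N2 libraries, alg-3 had 23 counts and alg-4 had 6 counts, against 2034 and 3484 counts in the 34 and 36 h libraries together. For alg-3 these pooled levels were 0.302 CPM early and 71.0 CPM at 34 and 36 h, and its fitted rise had an adjusted p of 8.2e-07. For alg-4 the adjusted p was 4.22e-08 (edgeR's quasi-likelihood test).

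The same switch was seen in all 4 strains at the same hours. At 28 h, alg-4 stood at 0.703 CPM in let-7(n2853), 1.30 CPM in lin-41(xe11), 0.857 CPM in the double mutant and 1.79 CPM in N2. At 30 h it stood at 14.2, 12, 11.6 and 14.3 CPM in these strains. alg-3 stood at 7.29 CPM in let-7(n2853), 6.53 CPM in lin-41(xe11), 7.25 CPM in the double mutant and 6.67 CPM in N2 at 30 h. Both genes were therefore on in every strain at 30 h, within the 2 h step of the sampling. Per kilobase of exon, alg-4 was above alg-3 in 19 of 19 libraries from 30 h with over 5 CPM of alg-3, by 1.37 to 2.03 times (median 1.61). The sperm marker list moved over the same hours: its summed level over 17 genes was 32.4 to 66.3 CPM in the early N2 libraries, with 6 to 8 genes at 0, and 72.2 to 654 CPM in the late ones, with 0 to 3 genes at 0. Its part in the rise of alg-3 and alg-4 was not tested.

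The few early counts of alg-3 and alg-4 varied between strains. In the 5 early libraries together, alg-3 had 65 counts in let-7(n2853), or 0.470 CPM (exact 95% interval 0.363 to 0.599), 46 in lin-41(xe11), or 0.626 CPM (0.458 to 0.834), 32 in the double mutant, or 0.354 CPM (0.242 to 0.500), and 23 in N2, or 0.302 CPM (0.191 to 0.453). alg-4 had 1 count in let-7(n2853), 20 counts in lin-41(xe11), 4 counts in the double mutant and 6 counts in N2. The 18 h library of lin-41(xe11) held 18 of its alg-3 counts and 13 of its alg-4 counts, and the 20 h library a further 7 and 6. The alg-3 intervals of lin-41(xe11) and N2 did not overlap. Neither gene was called in the early window in any mutant against N2 (edgeR's quasi-likelihood test, adjusted p from 0.0982 to 0.967), and these intervals cover counting error only.

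ergo-1 (WBGene00019971, chromosome V from 1008803 to 1018352, plus strand) did not pass the test in any strain, with adjusted p from 0.0535 in let-7(n2853) to 0.245 in lin-41(xe11). It was lowest in the middle of the course in every strain. The lowest values were 51.6 CPM at 30 h in let-7(n2853), 47.1 CPM at 30 h in lin-41(xe11), 51.9 CPM at 28 h in the double mutant and 45.3 CPM at 28 h in N2. At 36 h it was back at 69.2, 77.0, 68.3 and 72.9 CPM in these strains. pei-2, whose exons overlap those of ergo-1 on the opposite strand, was also higher at 36 h than at 28 h in every strain, with no test of its own here. It stood at 2.44 CPM at 28 h and 15.5 CPM at 36 h in let-7(n2853), at 2.45 and 16.7 CPM in lin-41(xe11), at 1.38 and 15.6 CPM in the double mutant and at 1.98 and 16.5 CPM in N2. Since use of strand in the counting is not given, reads of the overlap cannot be told apart, and the part of pei-2 in the later ergo-1 values was not tested. The dip in let-7(n2853) was called with RLE size factors (adjusted p = 0.0409), with a curve of 2 degrees of freedom (0.0277) and with DESeq2 (0.00142), and that in lin-41(xe11) without the 38 h library (0.0442).

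rde-1 (WBGene00004323, chromosome V from 9987916 to 9991642, minus strand) passed the test in N2 and lin-41(xe11) but not in let-7(n2853) or the double mutant. In N2 it stood at 71.5, 67.1, 61.3, 57.8 and 58.3 CPM in the early window, at 59.5, 54.7, 49.9, 54.6 and 50.9 CPM in the late window and at 63.8 CPM at 38 h. In N2 rde-1 thus changed with time (edgeR, adjusted p = 0.041). Its fitted level was lower at 36 h than at 18 h (-0.26 on the log2 scale), where 21.5% of all genes were called and lower. The call was lost without any 1 of the libraries of 18, 20, 22, 26, 30, 32 or 34 h, with adjusted p from 0.0520 to 0.144. In lin-41(xe11) the test was passed (adjusted p = 0.0485) with a net change of only -0.02, since rde-1 stood at 39.3 CPM at 32 h and at 90.0 CPM at 38 h. That call was lost without the 38 h library (0.267) and without any 1 of the libraries of 18, 20, 22, 28, 32, 34 or 36 h (0.0651 to 0.116). The 38 h library had the highest rde-1 level of its strain in lin-41(xe11) and also in the double mutant (77.3 CPM).

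**Figure D1:**
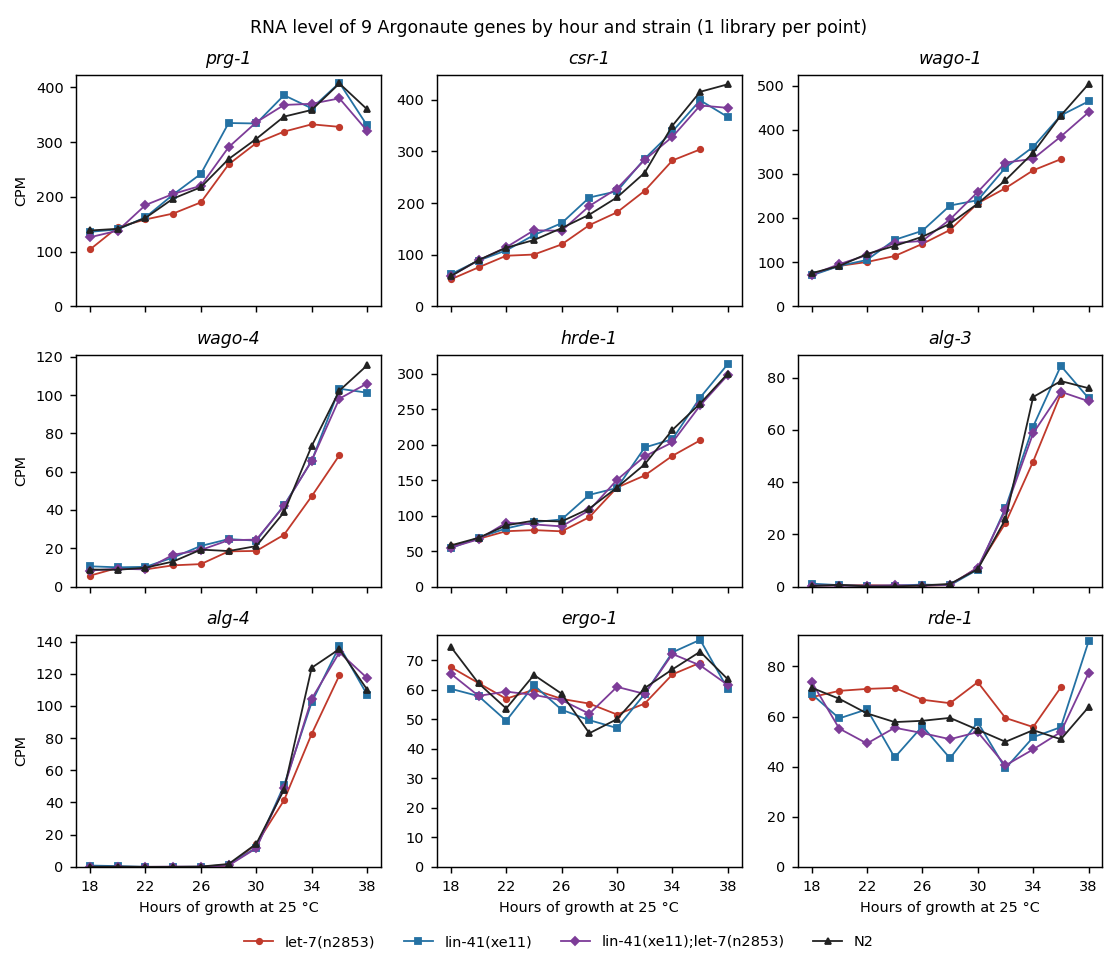
RNA level in CPM (vertical axes, each from 0) of the 9 Argonaute genes against hours of growth at 25 °C, with 1 point per library and 1 line per strain. Rises are gradual in prg-1, csr-1, wago-1 and hrde-1, late in wago-4 and abrupt between 28 and 34 h in alg-3 and alg-4, while ergo-1 and rde-1 have no steady rise; at 36 h the let-7(n2853) line is the lowest of the 4 in all 7 genes that rose, by little in alg-3 (73.8 CPM, against 74.6 CPM in the double mutant) and by more in csr-1 (304 against 389 CPM).

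In the other strains the same 7 genes rose. These 7 were called and higher in let-7(n2853) (17.7% of all genes were), lin-41(xe11) (26.3%) and the double mutant (25%). The shares of genes called in either direction were 29.5%, 44.6% and 41.5% in these strains, against 50.7% in N2. The fitted rise of wago-4 was 3.40 in let-7(n2853), while lin-41(xe11), the double mutant and N2 had 3.16, 3.47 and 3.47. For hrde-1 let-7(n2853) had 1.77, while lin-41(xe11), the double mutant and N2 had 2.22, 2.12 and 2.11. These rises were fitted strain by strain and their differences were not tested in that form.

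Set side by side per kilobase of exon, the order of the genes changed along the course. At 18 h in N2, prg-1 led with 51.9 CPM per kb, ahead of wago-1 (24.5), rde-1 (22.2), ergo-1 (20.4), hrde-1 (16.4) and csr-1 (16), with wago-4 at 2.64 and alg-3 and alg-4 under 0.1. At 36 h the levels per kb were 153 for prg-1, 141 for wago-1, 113 for csr-1, 73.0 for hrde-1, 39.1 for alg-4, 30.4 for wago-4, 24.0 for alg-3, 20.0 for ergo-1 and 15.8 for rde-1. rde-1 and ergo-1 thus moved to the end of the order as the others rose past them. From 22 to 36 h, the order prg-1, wago-1, csr-1, hrde-1 held in every library of the 4 strains, and at 38 h wago-1 was above prg-1 in all 3 strains sampled. Over all 43 libraries, rde-1 was above ergo-1 in 30 and ergo-1 above rde-1 in 13. The late N2 means were 16.2 ± 3.14 for ergo-1 and 16.8 ± 1.17 for rde-1 (SD, n = 5), within their spread. The order was the same in each library with the length of the longest transcript in place of the exons.

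**Figure D2:**
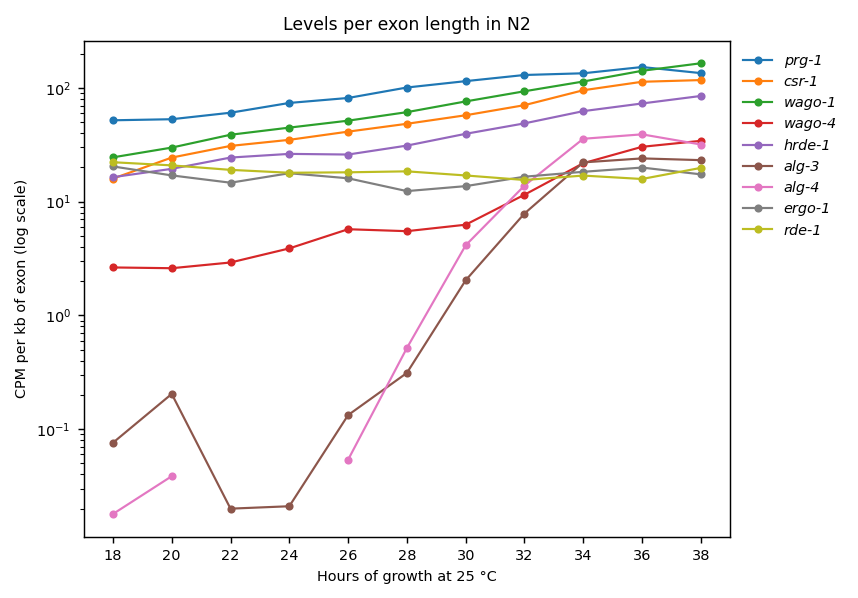
Level in N2 per kilobase of exon (CPM per kb, log scale) against hours of growth, with 1 point per library; libraries with no count of alg-4 have no point. prg-1 is highest up to 36 h, wago-4 crosses ergo-1 and rde-1 between 32 and 34 h, and alg-3 and alg-4 climb from under 1 CPM per kb at 28 h to 24.0 and 39.1 CPM per kb at 36 h.

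The question of the mutant comparisons was whether these genes differ from N2 with the n2853 allele, with the xe11 allele and with both together. Late in let-7(n2853), 4 of the 9 Argonautes were lower than in N2 and rde-1 was higher. Of all genes, 23% were called in this comparison, 12.6% lower and 10.4% higher, and the median change was -0.20 over the 9 members and -0.02 over all genes. Those called lower were csr-1, wago-1, wago-4 and hrde-1, which all belong to the second layer. Of the first layer, prg-1 (-0.15) and alg-4 (-0.35) were lower at 5 of 5 hours without being called, and a difference between the layers was not tested. With no replicate block, where the hours of a window are not matched, 0 of the 9 were called (csr-1 at -0.32 ± 0.29). In that run 566 of all 13295 genes were called. The comparisons with N2 share the N2 libraries.

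csr-1 stood at 157, 182, 224, 282 and 304 CPM from 28 to 36 h in let-7(n2853), against 177, 211, 259, 349.9 and 415 CPM in N2. It was lower at 5 of 5 hours, with a log2 change of -0.29 ± 0.05 (edgeR, adjusted p = 1.16e-04). wago-4 stood at 18.4, 18.6, 27.0, 47.1 and 68.6 CPM in let-7(n2853), against 18.5, 21.1, 38.8, 73.4 and 102 CPM in N2. It was also lower at 5 of 5 hours, with a change of -0.42 ± 0.10 (adjusted p = 0.00236), with nearly equal values at 28 h and the widest gaps from 32 h. The calls of csr-1 and wago-4 were kept without the libraries of any 1 hour, with changes from -0.31 to -0.24 and from -0.50 to -0.34.

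hrde-1 stood at 97.9, 139.7, 157, 184 and 206 CPM in the late let-7(n2853) libraries, against 110.1, 139.7, 173, 221 and 258 CPM in N2. The change was -0.20 ± 0.06 (edgeR, adjusted p = 0.0103). The call of hrde-1 was lost without the 34 h libraries (adjusted p = 0.0700) or those of 36 h (0.0966). wago-1 stood at 173, 233, 267, 308 and 333 CPM in let-7(n2853), against 187, 232, 285, 348 and 432 CPM in N2. It was lower at 4 of 5 hours, with a change of -0.17 ± 0.06 (adjusted p = 0.0472), just past the threshold. The call of wago-1 was lost without the libraries of any 1 of 18, 20, 22, 26, 28, 32, 34 or 36 h, with adjusted p from 0.0522 to 0.310.

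prg-1 stood at 259, 298, 319, 332 and 328 CPM in let-7(n2853) late, against 269, 306, 346, 359 and 407 CPM in N2. It was lower at 5 of 5 hours, with a change of -0.15 ± 0.06, and missed the threshold (edgeR, adjusted p = 0.0649). alg-3 stood at 0.569, 7.29, 24.3, 47.9 and 73.8 CPM in let-7(n2853), against 1.02, 6.67, 25.8, 72.5 and 78.7 CPM in N2. Its change of -0.24 ± 0.14 was not called (adjusted p = 0.222), with values close together at 30, 32 and 36 h. alg-4 stood at 0.703, 14.2, 41.3, 82.6 and 119 CPM in let-7(n2853), against 1.79, 14.3, 47.9, 124 and 135 CPM in N2. Its change of -0.35 ± 0.15 was not called either (adjusted p = 0.094), although DESeq2 (0.0431) and limma on the deposited log2 values (0.0394) called it. The 95% interval of the change reached from -0.53 to 0.05 in alg-3 and from -0.66 to -0.04 in alg-4.

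rde-1 was the one member that was higher. It stood at 65.3, 73.7, 59.5, 55.8 and 71.7 CPM from 28 to 36 h in let-7(n2853), against 59.5, 54.7, 49.9, 54.6 and 50.9 CPM in N2. The change of rde-1 was 0.25 ± 0.08 (edgeR, adjusted p = 0.0321), in the same direction at 5 of 5 hours, though the ranges of the groups overlapped. It was lost without the libraries of 30 h (adjusted p = 0.136), 32 h (0.0708) or 36 h (0.161). ergo-1 had means of 59.3 ± 7.46 CPM in let-7(n2853) and 59.2 ± 11.5 CPM in N2 (SD, n = 5 each), a change whose 95% interval ran from -0.13 to 0.12.

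**Figure D3:**
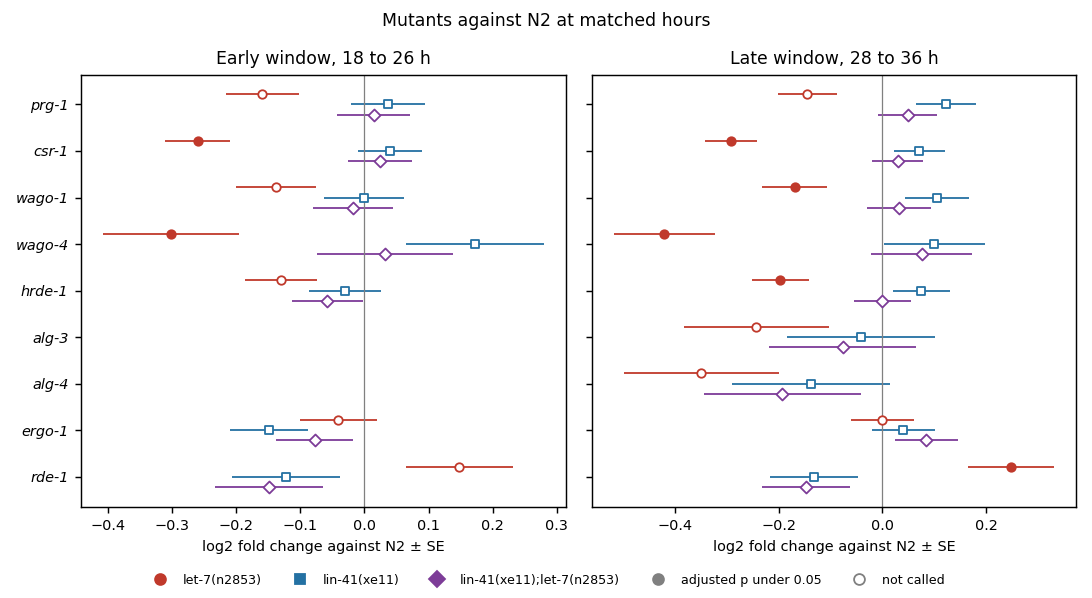
Log2 fold changes against N2 (horizontal axes, ± SE) of the 3 mutant strains in the early and late windows, with filled points for adjusted p under 0.05 by edgeR and 5 libraries per strain and window; alg-3 and alg-4 are left out of the early panel, where their counts are near 0. Filled points occur in let-7(n2853) only: csr-1 and wago-4 early, and csr-1, wago-1, wago-4, hrde-1 and rde-1 late.

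Earlier, from 18 to 26 h, 2 of the 9 genes were already lower in let-7(n2853), where 9.73% of all genes were called lower and 18.5% in either direction. csr-1 stood at 52.2, 75.4, 97.9, 100.2 and 119.8 CPM in let-7(n2853), against 58.5, 89.6, 113, 128 and 151 CPM in N2, a change of -0.26 ± 0.05 (edgeR, adjusted p = 5.85e-04). wago-4 stood at 5.71, 9.79, 8.97, 11.1 and 11.7 CPM in let-7(n2853), against 8.90, 8.76, 9.84, 13.1 and 19.3 CPM in N2, a change of -0.30 ± 0.11 (adjusted p = 0.0449). In the same window lin-41 RNA was not called (0.09 ± 0.12, adjusted p = 0.651). The early call of wago-4 was lost without the libraries of 18, 24, 26, 30, 32, 34 or 36 h, with adjusted p from 0.0508 to 0.315. prg-1 was not called (-0.16 ± 0.06, adjusted p = 0.0513) but was called when the 20 h (0.0207), 22 h (0.0291) or 36 h libraries (0.0448) were left out. The difference between the late and the early change was called for 0 of the 9, where 0.0827% of all genes were called. Among the 9, 2 had an unadjusted p under 0.05. DESeq2 called 0 of the 9 and 40 of all genes. limma called 1 of the 9, alg-4, and 524 of all genes. Early alg-4 had 1 count in let-7(n2853) and 6 counts in N2.

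Germline markers moved in the same direction, and so did the median of the somatic list. Of the 15 genes in the germline list, 7 were lower and 0 higher late in let-7(n2853) (list median -0.18), and their summed level was 1174 to 2039.6 CPM in let-7(n2853) and 1230.2 to 2643 CPM in N2. Of 14 oocyte genes, 10 were lower and 0 higher (median -0.55), with sums of 173 to 643 CPM in let-7(n2853) and 191 to 963 CPM in N2. Of 15 sperm genes tested, 3 were lower and 0 higher (median -0.18), and of 15 somatic genes 5 were lower and 2 higher (median -0.13). Of all genes, 12.6% were called lower and 10.4% higher, with a median of -0.02. None of the germline, oocyte or somatic markers was at 0 in a late library. Set against the median gene of the germline list at each hour, the late difference of let-7(n2853) from N2 became -0.16 for csr-1, -0.28 for wago-4, -0.07 for hrde-1, -0.04 for wago-1 and -0.02 for prg-1, and 0.38 for rde-1, with no test. The part of the germline markers in the members' changes was not tested.

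The late let-7(n2853) libraries also resembled earlier N2 libraries. Read from N2 curves over all tested genes but the 9, their age was 1.02 h behind the hour on average (age minus hour from -2.3 to 0). The average was 0.14 h in lin-41(xe11) and -0.12 h in the double mutant. That of N2 (0.14 h) lies near 0 by construction, since the curves were fitted to the N2 libraries. The 36 h library of let-7(n2853) was placed at 33.7 h. With this age in place of the hour, 0 of the 9 members were called in let-7(n2853) against N2 late by edgeR, and 1946 genes were. The changes became -0.11 ± 0.09 for csr-1, -0.09 ± 0.14 for wago-4, -0.04 ± 0.06 for hrde-1 and -0.02 ± 0.09 for wago-1, while that of rde-1 kept its size (0.26 ± 0.10, adjusted p = 0.0661). alg-3 and alg-4 turned to 0.17 ± 0.17 and 0.15 ± 0.20, neither called.

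**Figure D4:**
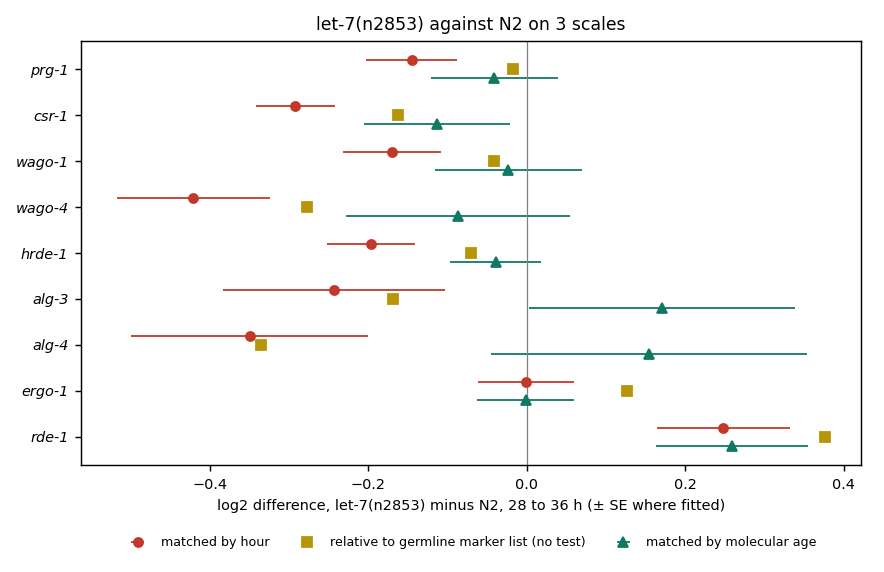
Late difference of let-7(n2853) from N2 on the log2 scale (horizontal axis) for each gene, with libraries matched by hour, relative to the germline marker list, and matched by molecular age; bars are the SE of the edgeR fits. Members that were lower by hour lie nearer to 0 by age, as csr-1 does at -0.11 against -0.29, and rde-1 stays at 0.26 against 0.25.

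The hour at which a gene first passed the N2 level of 36 h divided by 2 was read from straight lines of log2 CPM between libraries. In let-7(n2853) it came 1.78 h later than in N2 for prg-1, 1.56 h for wago-4, 1.46 h for csr-1, 0.69 h for alg-4, 0.60 h for alg-3, 0.22 h for hrde-1 and 0.16 h for wago-1. prg-1 passed its level at 26.45 h in let-7(n2853) and 24.67 h in N2, wago-4 at 34.43 and 32.87 h, and csr-1 at 31.28 and 29.82 h. In lin-41(xe11) the hour differed from that in N2 by -1.93 (csr-1) to 0.10 (alg-4), and in the double mutant by -0.98 (csr-1) to 0.12 (alg-4). Each hour comes from 1 curve per strain and has no error of its own. The level was set from N2 for every strain, so a lower level throughout and a later rise cannot be told apart here.

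Neither in the double mutant nor in lin-41(xe11) was any of the 9 called against N2 in either window. In lin-41(xe11) 0.361% of all genes were called late and 0.0677% early, and in the double mutant 0.888% late and 0.143% early. In lin-41(xe11), 1 member late, prg-1, and 3 early, alg-3, alg-4 and ergo-1, had an unadjusted p under 0.05, and in the double mutant 0 had in either window. DESeq2 and limma called 0 of the 9 in these comparisons. Late changes ranged from -0.14 ± 0.15 (alg-4) to 0.12 ± 0.06 (prg-1) in lin-41(xe11) and from -0.19 ± 0.15 (alg-4) to 0.08 ± 0.06 (ergo-1) in the double mutant. For csr-1 the 95% interval was -0.03 to 0.17 in lin-41(xe11) and -0.07 to 0.13 in the double mutant, so a fall of the size seen in let-7(n2853) lay outside both. For wago-4 it was -0.10 to 0.30 and -0.13 to 0.28. The change from early to late was called for 0 of the 9 in both strains, where 0.0226% and 0.00752% of all genes were called; 3 members had an unadjusted p under 0.05 in lin-41(xe11), and the double mutant had 0, and DESeq2 and limma called 0.

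Late, let-7(n2853) also differed from the double mutant, which carries the same let-7 allele together with xe11. Of the 9 genes, 6 were called, 5 lower and rde-1 higher, where 11.6% of all genes were called lower and 11.4% higher (23% in all). These values share the let-7(n2853) libraries with the comparison above. csr-1 stood at 157, 182, 224, 282 and 304 CPM in let-7(n2853), against 194, 228, 284, 328 and 389 CPM in the double mutant (-0.32 ± 0.05, edgeR, adjusted p = 3.97e-05). wago-4 was lower, with a change of -0.50 ± 0.10 (adjusted p = 4.86e-04) and 24.2, 24.5, 42.0, 65.7 and 98.1 CPM in the double mutant. The calls of prg-1 (-0.19, adjusted p = 0.0137), wago-1 (-0.20, 0.0184) and hrde-1 (-0.20, 0.0101) were lost without the libraries of 32 h (0.0588, 0.0979 and 0.0531), and that of hrde-1 also without those of 36 h (0.0724).

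rde-1 was higher late in let-7(n2853) than in the double mutant. It stood at 65.3, 73.7, 59.5, 55.8 and 71.7 CPM late in let-7(n2853), against 51, 53.8, 40.5, 46.9 and 53.9 CPM in the double mutant. All let-7(n2853) values of rde-1 were above all values of the double mutant. This is a description only, since the share of all genes with no overlap was not counted. The change was 0.40 ± 0.08 (edgeR, adjusted p = 0.00109), and it was kept without the libraries of any 1 hour (0.36 to 0.43), with molecular age in place of the hour (0.43 ± 0.10, adjusted p = 0.00387) and with no replicate block (0.39 ± 0.11, adjusted p = 0.0292). Of the 9 members, rde-1 was the only one called with molecular age and the only one called with no replicate block. Many of the 13295 genes were also called in both runs, with counts in the last section. Whether members were called more often than all genes in these runs was not tested. With molecular age, csr-1 stood at -0.22 ± 0.10 (adjusted p = 0.130) and wago-4 at -0.29 ± 0.15 (0.201).

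Between the double mutant and lin-41(xe11), 0 of the 9 were called late, where 0.0903% of all genes were. Changes ranged from -0.08 ± 0.06 (hrde-1) to 0.04 ± 0.06 (ergo-1). None of the 9 had an unadjusted p under 0.05, and DESeq2 and limma called 0.

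The partners of these Argonautes were followed in 7 lists of 67 genes, 63 of them tested: other Argonautes, RNA-dependent RNA polymerases, the Mutator complex, Dicer and its partners, piRNA biogenesis, nuclear and tailing factors, and transport of double-stranded RNA. Along the N2 course 46 rose and 4 fell, where 29.2% of all genes were called and higher and 21.5% called and lower. Their median fitted change was 0.81, against 0.07 over all genes. All 14 piRNA biogenesis genes rose, with tofu-2 at 8.90 CPM at 18 h and 48.6 CPM at 36 h, prde-1, which acts in piRNA transcription, at 9.03 and 40 CPM, and pid-3 at 15.7 and 45.2 CPM. ego-1, the germline RNA-dependent RNA polymerase, rose by 2.23 (edgeR, adjusted p = 4.12e-07), whereas rrf-2 fell by 0.67 and rrf-3, which makes primary small RNAs for ERGO-1 and for ALG-3 and ALG-4, rose by 0.54. Of 10 other Argonautes 7 rose and 3 fell. wago-10 stood at 0.125 CPM at 18 h and 56.4 CPM at 36 h, and alg-5 at 9.34 and 36.2 CPM. In the Mutator complex, which makes secondary small RNAs, 5 of 7 genes rose, mut-7, mut-2 and mut-16 with the smallest p (rises of 1.5, 1.82 and 0.81). Of 13 genes of Dicer and its partners 9 rose, as did 7 of 8 nuclear and tailing factors, among them hrde-2 (1.92). Of 7 transport genes 2 rose, rsd-2 (0.37) and rsd-6 (0.27), a share near that of all genes.

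Late in let-7(n2853), 9 genes of these lists were higher than in N2 and 11 were lower (23% of all genes called), counted here by list. Of the other Argonautes 6 of 10 were lower and 0 higher, with sago-1 at -0.42 ± 0.06 (edgeR, adjusted p = 1.90e-05), vsra-1 at -0.36 ± 0.09 and ppw-2, also known as wago-3, at -0.29 ± 0.06. Of the piRNA biogenesis genes 3 of 14 were lower and 0 higher, namely snpc-4 (-0.21), tofu-2 (-0.29) and tofu-6 (-0.30). Of Dicer and its partners 4 of 13 were higher, like rde-1, and 0 lower, with rde-4, the double-stranded RNA binding partner of Dicer, at 0.34 ± 0.08 (adjusted p = 0.00227), eri-9 at 0.24 ± 0.08 and dcr-1, Dicer itself, at 0.21 ± 0.07. The polymerases rrf-3 (0.22 ± 0.06) and rrf-1 (0.20 ± 0.07) were higher, as were the nuclear factors nrde-1 (0.30 ± 0.06) and nrde-2 (0.21 ± 0.07), whereas set-32 was lower (-0.30 ± 0.10). Of the Mutator complex 0 of 7 were called, and of the transport genes rsd-6 was higher (0.16) and sid-1 lower (-0.21). In lin-41(xe11) 0 of the 63 were called late, where 0.361% of all genes were. In the double mutant 1 was, sago-1 (-0.26 ± 0.06, edgeR, adjusted p = 0.0404), where 0.888% of all genes were.

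Against the double mutant, late let-7(n2853) libraries had 14 of the 63 partner genes higher and 12 lower, where 11.4% of all genes were called higher and 11.6% lower. dcr-1 was higher by 0.36 ± 0.07 (edgeR, adjusted p = 2.92e-04), rde-4 by 0.35 ± 0.08, rrf-1 by 0.36 ± 0.07 and nrde-1 by 0.43 ± 0.06. ppw-2 was at -0.33 ± 0.06 and tofu-2 at -0.34 ± 0.07, both lower.

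The genes whose level over the 43 libraries was most like each member were found by correlations of log2 CPM over libraries that share the time course, given as a description. wago-1 was most like immt-2 (r = 0.995), a gene for a mitochondrial inner membrane protein, deps-1 (0.994), a P granule gene, and rpl-11.1 (0.993), a ribosomal protein gene, and csr-1 was most like immt-2 (0.992), ucr-2.3 (0.992), a gene of the mitochondrial respiratory chain, and glh-1 (0.991), which encodes a germline helicase of P granules. hrde-1 was most like the P granule gene pgl-1 (0.990), lotr-1 (0.989) and ani-2 (0.986). prg-1 was most like sdha-2 (0.980), a succinate dehydrogenase gene, pgl-3 (0.978), another P granule gene, and ucr-2.3 (0.977). The genes most like wago-4 were gld-1 (0.985), a regulator of germ cell differentiation, WBGene00018416 (0.985), which had no symbol, and Y18D10A.11 (0.985). alg-4 was most like F58G1.3 (0.997), W02B12.12 (0.996) and catp-4 (0.996), all at 0 at 18 h in N2, and alg-3 like Y43F8C.5 (0.992), E03H12.7 (0.991) and C05C12.1 (0.990). rde-1 had lower values, with rbm-25 (0.907), rev-1 (0.903) and evl-14 (0.903), and ergo-1 the lowest, with dmd-9 (0.776), F27C8.2 (0.758) and ptb-1 (0.752). Among the members, csr-1 and wago-1 had r = 0.991 and alg-3 and alg-4 r = 0.981, whereas csr-1 and rde-1 had r = -0.33.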

How the data were processed

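Per the labels' protocols, Tri-Reagent, Ribo-Zero and ScriptSeq v2 were used for RNA isolation, depletion and libraries. The authors deposited whole-number counts per gene and library. Mapping, counting, use of strand and genome build are not given in the sources used here. The deposited log2 values equal the log2 of the count scaled to a common total plus a pseudocount of 8. For let-7(n2853) that total was 26.10 M counts, and for the other strains 12.02 M, so they served only as an alternative, centred per library. Coordinates are those of Ensembl's WBcel235 annotation, matched by gene ID. Exons of prg-1, csr-1 and ergo-1 overlap those of D2030.12 (0.751 to 4.59 CPM), frpr-10 (0.138 to 1.43 CPM) and pei-2 (0.630 to 16.7 CPM), and reads in the overlaps cannot be told apart. No sequence is printed.

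Counts of 40 libraries of 18 to 36 h were scaled with TMM and tested with edgeR 4.0.16 (quasi-likelihood, R 4.3.3) for the 13295 genes whose mean CPM reached 1. Terms were the hour, as a factor, and 1 per mutant and window, with 24 residual degrees of freedom. The hour pairs the strains and is the replicate block, and same-hour libraries share the stage that the labels give. Time courses used natural splines with 3 degrees of freedom and all hours of a strain. p was adjusted over the 13295 genes (Benjamini-Hochberg, threshold 0.05), and ± in fold changes is the SE. Differences per hour and correlations used a prior count of 2. Alternatives were RLE size factors, DESeq2 1.42.0, limma 3.58.1, no filter, no block, each hour left out, another spline, transcript length and molecular age. Age was the best match on N2 splines with 5 degrees of freedom, a setting chosen after the ages were seen. It placed the 24 h libraries of let-7(n2853) and lin-41(xe11) at 20.9 and 19.9 h. Scripts were tested on simulated counts.

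The 9 genes, the lists and the tests were chosen with earlier results of these data known. Named beside the 9 were up to 3 called genes of each list and comparison with the smallest p, and the 3 genes most correlated with each member. Of 128 genes listed with the markers, 125 were in the table. No library duplicated another.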

Additional observations from a re-analysis of the deposited data

Results flagged for a closer look

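In 72 sets of 5 differences by hour, between 2 strains within a window, 4 held 1 hour far from the other hours; chance gives about 1 such set in 20. ergo-1 in lin-41(xe11) against N2 was at -0.31 (log2) at 18 h and between -0.14 and -0.08 at the other early hours. csr-1 in the double mutant against N2 was at 0.20 at 24 h and between -0.05 and 0.01 at the others. alg-4 in let-7(n2853) against the double mutant was at 0.29 at 30 h, opposite in sign to the other late hours (-0.34 to -0.16). alg-4 in the double mutant against lin-41(xe11) was at -0.54 at 28 h, from 13 and 17 counts, and between -0.05 and 0.03 at the others.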

How the results depend on the processing

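No called result changed sign under any alternative run. Genes called in let-7(n2853) against N2 late (3064) became 566 with no replicate block and 1946 with molecular age, and 1967 to 3148 without 1 hour. Members called there (5) became 0 with no replicate block and 0 with age, and 2 to 5 without 1 hour. Early (2462 genes) the counts were 505 with no block, 4130 with limma and 1503 to 2495 without 1 hour; members (2) became 0 with no block, 1 with no filter (csr-1), 1 with age (alg-4, on 1 count in let-7(n2853) and 6 in N2) and 1 to 3 without 1 hour. Late minus early (11 genes) gave 1 with no block, 40 with DESeq2, 524 with limma, 0 with age and 3 to 43 without 1 hour, with 1 member called by limma. Against the double mutant late, 3060 of 13295 genes were called. This count became 695 with no block, 2026 with age and 2146 to 3097 without 1 hour. Members called there (6 of 9) became 1 with no block, 1 with age and 3 to 6 without 1 hour.

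In lin-41(xe11) against N2, genes called late (48) became 1 with no block, 75 with DESeq2, 25 with limma, 9 with age and 7 to 50 without 1 hour. Early (9) they became 1 with no block, 25 with DESeq2 and 4 to 10 without 1 hour, and late minus early (3) 0 with no block, 1 with DESeq2, 1 with limma, 0 with age and 0 to 8 without 1 hour. In the double mutant against N2, late calls (118) became 1 with no block, 31 with age and 24 to 133 without 1 hour. Early (19) they became 3 with no block, 49 with DESeq2, 12 with age and 4 to 23 without 1 hour, and late minus early (1) 0 with no block, 3 with DESeq2, 0 with age and 1 to 3 without 1 hour. The double mutant against lin-41(xe11) (12) gave 1 with no block and 6 to 13 without 1 hour. Members called in these stayed at 0. The causes were not tested; a fit with no block leaves the change over the hours of a window in the spread, by construction.

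wago-1 late in let-7(n2853) was also lost with no filter (adjusted p = 0.129) and with limma (0.214), and hrde-1 with limma (0.0600). Early counts of alg-3 and alg-4, from 1 to 65 per strain over 5 libraries, limit the precision of their early changes: that of alg-4 in let-7(n2853) had a 95% interval from -4.87 to -0.36.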
